A study of Mus musculus with 4 samples.

Results

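The genes described here encode 10 transcription factors of endothelium and endocardium, out of 21938 protein-coding genes annotated by GENCODE M21 on the mm10 mouse genome. They were taken as a fixed list by family, namely the SOXF genes *Sox7*, *Sox17* and *Sox18*, the ETS genes *Erg*, *Fli1*, *Ets1* and *Etv2*, the calcineurin-responsive *Nfatc1*, and the Krüppel-like genes *Klf2* and *Klf4*. Open chromatin was measured by ATAC-seq, in which the Tn5 transposase cuts DNA that nucleosomes leave free, in whole mouse hearts at embryonic day 9.5 that were either wild type (WT) or carried mutated *Smyd1* on both alleles (*Smyd1-KO*). SMYD1 is a lysine methyltransferase of heart and skeletal muscle, and the mutation came through the germ line of *Smyd1*+/- parents, so all cell types of the *Smyd1-KO* heart carried it. There were 4 libraries, 2 per genotype, each from 4 pooled hearts and an input of 40000 viable, unsorted cells, and the labels do not say whether the pools of a genotype came from separate litters. The deposited lists hold 25745 peaks with more tags in *Smyd1-KO* hearts (gained peaks) and 106 with more tags in WT hearts (lost peaks), made by the authors at a 2-fold threshold after the libraries of each genotype had been combined.

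Endothelial cells line the vessels, and the endocardium is the endothelial lining of the heart. Transcription factors of the SOXF, ETS, NFAT and KLF families act in both linings. ETS proteins recognise sites with a GGAA core and hold endothelial identity, and ETV2 acts early and briefly when endothelial and blood progenitors form. SOXF proteins act in arterial, lymphatic and endocardial development. NFATC1 is a classical marker of endocardium and is needed for the heart valves, and KLF2 and KLF4 are induced by blood flow through a MEKK3-ERK5 kinase cascade and bind CACCC elements.

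To place the peaks, a gained peak was assigned to a member when it overlapped the gene body or lay within 50 kb of any annotated transcription start site (TSS) of that gene. A peak within 10 kb of a TSS was called a promoter peak, which is the definition of the study, a promoter peak within 3 kb was called proximal, and every other assigned peak was called distal. Distances were taken from the nearer edge of the peak. The score of a peak is the deposited signal, a tag value of the peak in *Smyd1-KO* hearts, pooled over the libraries and written as tags below. It is not a raw count, since the scores come in steps of 0.5 in the gained list and 0.1 in the lost list, and how the authors scaled it is not given in the sources used here. Scores were therefore not compared between the lists. The score measures how high the peak was in the knockout, not by how much it differed from WT, and it carries no replicate error because the libraries were pooled. No test between the genotypes could therefore be made at any member. In whole hearts a larger share of cells of a type and a change of chromatin within each cell cannot be told apart. The total depth of each library is not known from the lists.

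Of the 25851 listed peaks, 19 were assigned to the members, all of them gained peaks and none of them shared by members. Of these 19 peaks, 8 were promoter peaks, 6 of which were proximal, and 11 were distal. At least 1 gained peak was assigned to 9 of the 10 members, and the background was 79.2% of all protein-coding genes. A promoter peak was present at 6 members (background 59.6%), a proximal peak at 5 (background 51.2%) and a distal peak at 7 (background 67.8%). A promoter peak for which no other gene had a nearer TSS was present at 5 members, against 49.2% of all genes. Each of these shares was near its background. The windows of the members cover 1.42 Mb, or 0.0522% of the assembled genome, and would hold 13.4 gained peaks if the list were spread evenly.

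None of the 106 lost peaks was assigned to a member. At an even spread the windows of the members would hold 0.0553 lost peaks, so a count of 0 says little about these genes. Lost peaks were rare near genes in general, with 0.415% of protein-coding genes having one in this window. The lost peak nearest to any member lay 588.8 kb from *Nfatc1*, with a score of 31.6 tags.

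**Figure D1:**
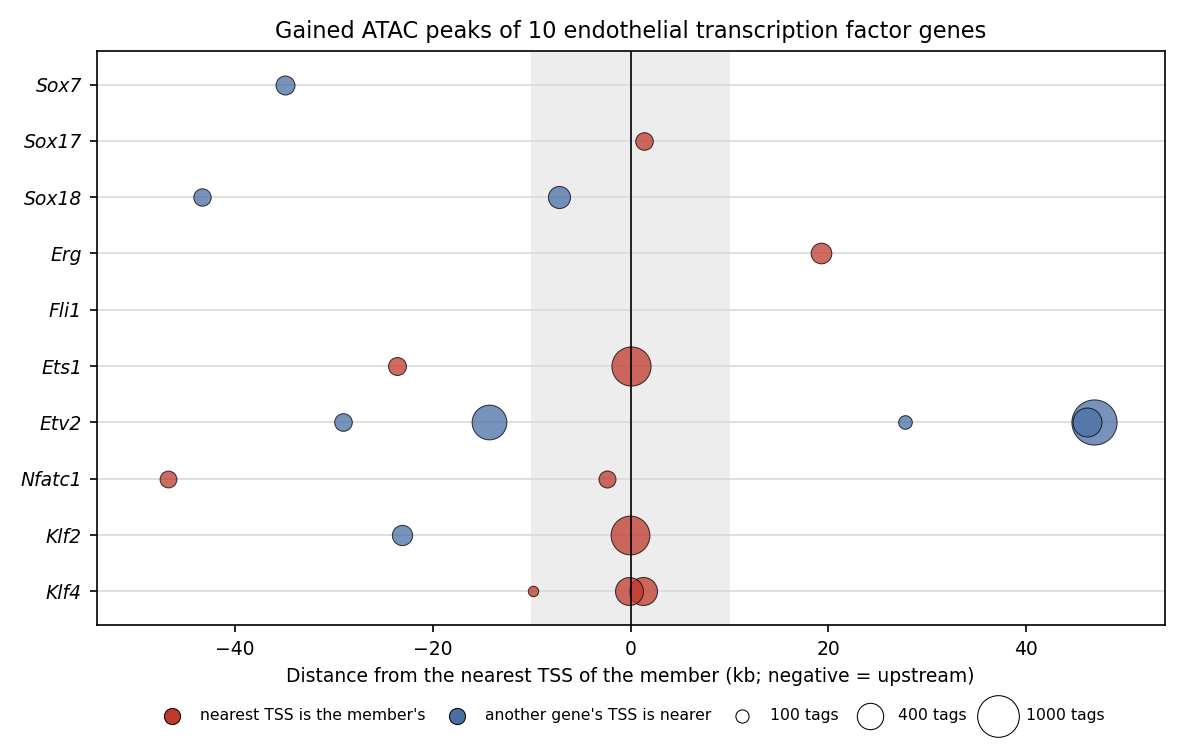
Gained peaks of the 10 members by distance (kb) from the nearest annotated TSS of the member, with negative values upstream, grey shading within 10 kb of the TSS, and circle area proportional to the score in scaled pooled tags. Red circles mark the 10 peaks nearest to the member and blue circles the 9 peaks nearer to another gene, which include all 5 peaks assigned to *Etv2*, and *Fli1* has none.

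The sequences of 6 peaks carry the contrasts described below, and all were read from the GRCm38 genome, which has the sequence of mm10, 5′ to 3′ on the strand of the gene. They are the peak 91 bp upstream of *Klf2* (chr8:72318794-72318942, plus strand), the peak 205 bp upstream of *Klf4* (chr4:55532671-55532819, minus strand) and the part of the *Ets1* promoter peak that precedes the TSS (chr9:32695915-32696021, plus strand), all shown for their GC boxes. The peak in the last exon of *Sox17* (chr1:4492074-4492222, minus strand) is shown as coding sequence that is rich in CpG. The intronic peak of *Erg* (chr16:95439861-95440009, minus strand) and the peak 9844 bp upstream of *Klf4* (chr4:55542310-55542458, minus strand) are shown as sequence that is poor in CpG. Capitals mark GC boxes (GGGCGG or its reverse complement CCGCCC) in the first 4, a MEF2 string (CTANNNNTA or its reverse complement TANNNNTAG) in *Erg*, and a GATA string (AGATAA) followed by overlapping MEF2 strings on both strands in the second *Klf4* peak.
Klf2 peak at the TSS: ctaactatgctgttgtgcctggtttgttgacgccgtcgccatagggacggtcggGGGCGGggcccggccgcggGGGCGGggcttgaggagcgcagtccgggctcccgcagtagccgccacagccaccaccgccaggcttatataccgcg
Klf4 peak at the TSS: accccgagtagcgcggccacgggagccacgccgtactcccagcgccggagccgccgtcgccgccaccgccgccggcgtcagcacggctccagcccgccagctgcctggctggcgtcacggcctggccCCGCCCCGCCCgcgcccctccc
Ets1 peak before the TSS: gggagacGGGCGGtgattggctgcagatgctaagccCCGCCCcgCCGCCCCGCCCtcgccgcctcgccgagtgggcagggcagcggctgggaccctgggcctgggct
Sox17 peak in the last exon: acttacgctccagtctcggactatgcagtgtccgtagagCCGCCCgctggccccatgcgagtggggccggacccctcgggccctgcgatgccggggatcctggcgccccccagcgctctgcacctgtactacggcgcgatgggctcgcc
Erg peak in the intron: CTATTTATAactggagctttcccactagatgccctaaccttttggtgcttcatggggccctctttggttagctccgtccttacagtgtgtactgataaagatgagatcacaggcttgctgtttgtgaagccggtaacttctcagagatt
Klf4 peak upstream: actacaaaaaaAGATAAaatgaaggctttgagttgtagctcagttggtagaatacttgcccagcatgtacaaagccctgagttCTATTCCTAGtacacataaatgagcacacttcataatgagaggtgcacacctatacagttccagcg

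The highest-scoring peaks that were nearest to a member lay at the TSSs of *Ets1* and *Klf2*. *Ets1*, an ETS factor of endothelial cells and lymphocytes, had a peak of 882.5 tags (chr9:32695915-32696063) that covered the TSSs of 2 protein-coding transcripts and ran into the 5′ UTR in exon 1 of 8 of its main transcript. It ranked 1216 in the gained list, at percentile 95.3, and at percentile 91.5 among peaks within 3 kb of the TSS of any gene. *Klf2* (chr8:72319033-72321656), the flow-responsive Krüppel-like gene, had a peak of 866.5 tags 91 bp upstream of its single TSS, ranking 1312 and at percentiles 94.9 and 90.8 by the same measures. For comparison, the 13986 gained peaks of that class had a median of 365.5 tags (quartiles 197.5 and 583.5), and both peaks were above its upper quartile. The *Ets1* peak had a GC content of 75.2% with 16 CpG dinucleotides and 4 GC boxes, and the *Klf2* peak a GC content of 69.8% with 17 CpG dinucleotides and 2 GC boxes.

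*Ets1* also had a second gained peak of 185.5 tags (chr9:32672250-32672398), 23624 bp upstream of the TSS of its main transcript. This peak lies inside the gene as annotated only because of a retained-intron transcript that starts farther upstream, and it sits in intron 3 of 3 of that transcript. The score of the TSS peak was 4.76 times that of the upstream peak. The upstream TSSs, used by 2 retained-intron transcripts that code for no protein, were 36 kb from the nearest gained peak. At *Ets1* the gained peak at a TSS was thus at the start of the protein-coding transcripts.

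*Klf2* had a second gained peak as well, of 236 tags and 23127 bp upstream (chr8:72295758-72295906), and the TSS peak scored 3.67 times as high. This upstream peak was nearer to *Gm10282*, at 9354 bp. It held none of the 8 strings searched, and among gained peaks 3 to 10 kb from a TSS its score was at percentile 85.4. *Klf2* thus paired a high peak at the TSS with a lower peak upstream, as *Ets1* did. The whole gained list had the same order. Its medians were 365.5 tags within 3 kb of any TSS, 102.5 at 3 to 10 kb and 81 beyond 10 kb.

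**Figure D2:**
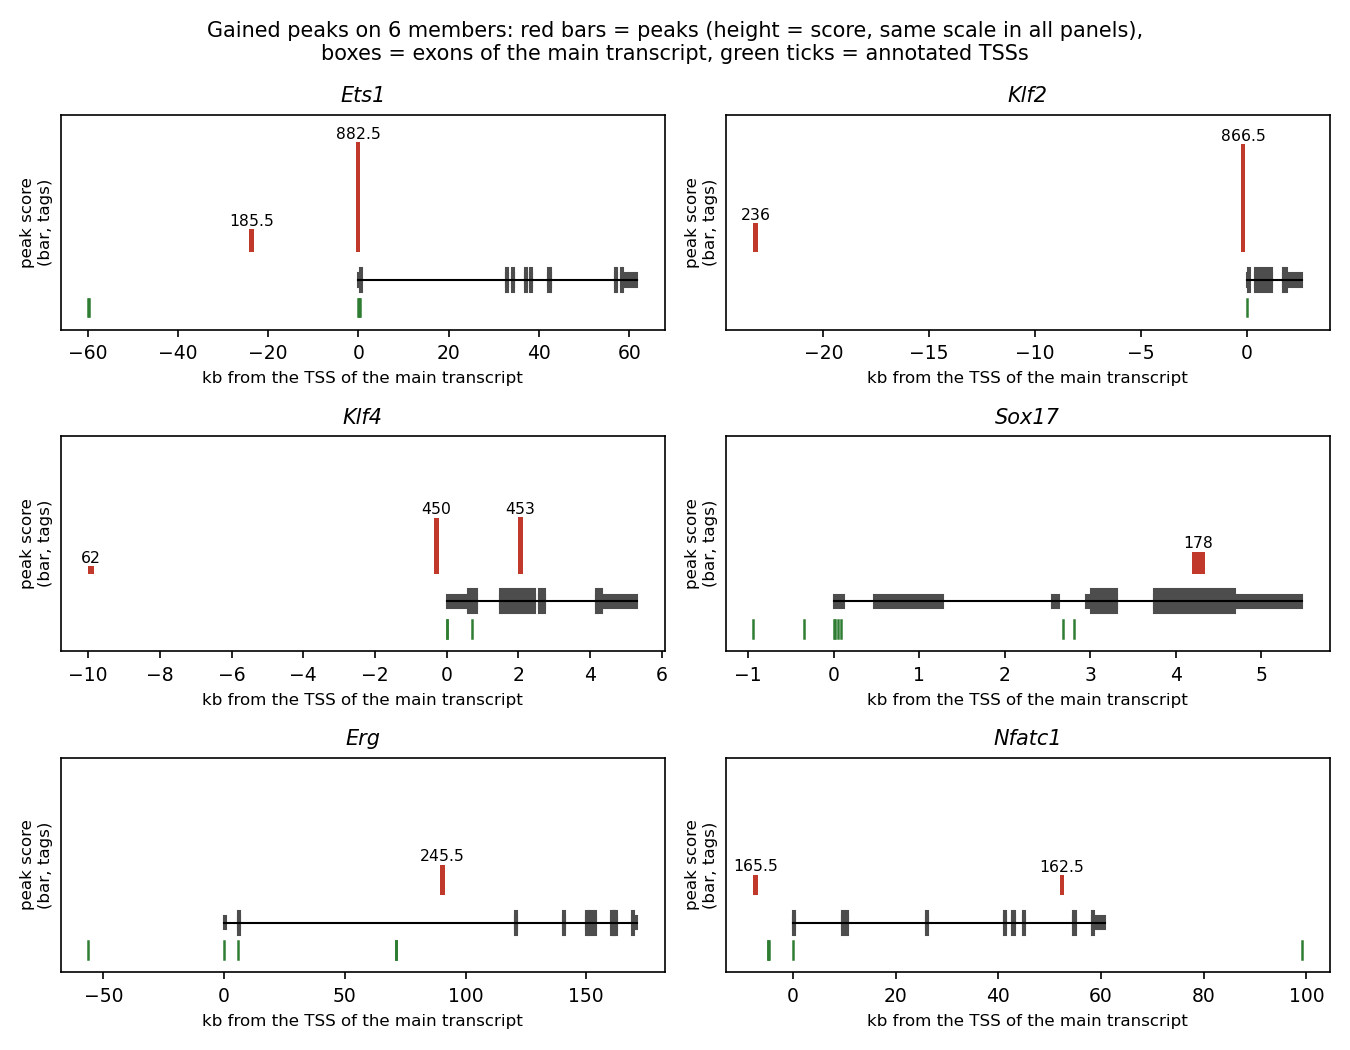
Gained peaks (red bars, height is the score in scaled pooled tags on a common linear scale) on the main transcripts of 6 members, with exons as boxes (coding parts thicker), annotated TSSs as green ticks, and the position in kb from the TSS of the main transcript, the gene running to the right. *Ets1* and *Klf2* have a high peak at the TSS (882.5 and 866.5 tags), the *Klf4* peaks of 450 and 453 tags lie on either side of its TSS, and the peaks of *Sox17*, *Erg* and *Nfatc1* are away from the start of the main transcript.

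*Klf4* (chr4:55527143-55532466), which acts in flow-exposed endothelium and also in stem cells and epithelia, was the one member with 3 promoter peaks. The first, 205 bp upstream of the outermost TSS, scored 450 tags, and the second, in coding exon 3 of 5 and 1287 bp downstream of the nearest TSS (chr4:55530335-55530483), scored 453 tags. These proximal peaks were 2187 bp apart with a score ratio of 1.01, and both lay close to percentile 78 of the gained list (78.1 and 78.3). The third, 9844 bp upstream, was just inside the promoter distance and had the lowest score of all 19 peaks, at 62 tags and percentile 15.8. The gained peaks of *Klf4* therefore differed in score by 7.26 times between its upstream peak and the neighbour at the TSS. The peak at the TSS had the highest GC content of the 19, at 81.9% with 24 CpG dinucleotides. The upstream peak had a GC content of 40.3%, 1 CpG dinucleotide and 55% repeat-masked bases. Of all protein-coding genes, 44.4% had as many gained peaks as *Klf4* or more.

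The SOXF genes differed from each other in where their gained peaks lay. *Sox17* (chr1:4490931-4497354), a gene of arterial endothelium and endocardium, had a single gained peak of 178 tags, at percentile 49.6 of the list but at percentile 22.2 in the class within 3 kb of any TSS. It lay in coding exon 5 of 5 of its main transcript and had a GC content of 71.1%, 16 CpG dinucleotides and 1 GC box. The peak counted as proximal because a retained-intron transcript starts 1382 bp away and a short coding transcript 1513 bp away, whereas the TSS of the main transcript was 4191 bp away. No gained peak covered any of its 8 annotated TSSs. The proximal call for *Sox17* thus came from internal starts and not from the start of the main transcript.

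*Sox18* (chr2:181669836-181671640), a gene of arterial and lymphatic endothelium, had 2 gained peaks, and both were nearer to another gene. The peak 7250 bp upstream (chr2:181678890-181679038) scored 280.5 tags, held no CpG dinucleotide and was 1272 bp from a TSS of *Tcea2*. The peak 43331 bp upstream (chr2:181714971-181715119) scored 174 tags and covered a TSS of *Oprl1*. *Sox7* (chr14:63943673-63950732), a SOXF gene of early vessels, had 1 gained peak of 207.5 tags (chr14:63908621-63908769), 34904 bp upstream inside the body of *Pinx1* and 8852 bp from a TSS of that gene. The nearest TSS of a protein-coding transcript was nevertheless that of *Sox7*. Neither *Sox7* nor *Sox18* had a gained peak within 3 kb of its single TSS.

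The ETS genes ranged from no gained peak at all to more than any other member. *Fli1* (chr9:32422204-32542861), which is expressed in endothelial and blood lineages, was the one member without a gained peak in its 120.7 kb gene body or within 50 kb of its 2 TSSs. The gained peak nearest to a TSS of *Fli1* was 129.4 kb away and was the 185.5-tag peak inside its neighbour *Ets1*. *Erg* (chr16:95359169-95586593), which maintains endothelial identity and junctions, had 1 gained peak in 227.4 kb of gene body. That peak scored 245.5 tags and lay in intron 2 of 10 of the main transcript, 19236 bp downstream of the nearest of the TSSs inside the gene. Among the 7850 gained peaks beyond 10 kb of any TSS, which had a median of 81 tags, the *Erg* peak was at percentile 92.6. It had a GC content of 45.6% and carried the MEF2 string CTATTTATA at one end. The related genes *Erg* and *Fli1* thus had no gained peak within 10 kb of any of their TSSs, while *Ets1* had one directly on its start.

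*Etv2* (chr7:30633616-30635852), the early endothelial and blood progenitor factor, had 5 gained peaks in its window, more than any other member, and 19.1% of all genes had as many or more. All 5 were distal and all 5 were nearer to another gene, in a window that holds the TSSs of 7 other protein-coding genes. The highest, of 1177 tags (chr7:30588861-30589009), ranked 356 in the gained list and was 135 bp from a TSS of *Kmt2b*, which encodes a histone H3K4 methyltransferase. Its neighbour, 491 bp further on (chr7:30589501-30589649), scored 483.5 tags and lay 121 bp from *Mir3569* and 775 bp from *Kmt2b*. A peak of 694 tags (chr7:30650171-30650319), 14319 bp upstream of *Etv2*, covered a TSS of *Rbm42*, which encodes an RNA-binding protein. The other peaks of the window scored 107.5 and 179 tags. The nearest gained peak of any score was 14.3 kb from the *Etv2* TSS, and no gained peak was listed at the gene itself.

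*Nfatc1* (chr18:80606205-80713071) had 2 gained peaks of nearly equal score, 59.5 kb apart and with a score ratio of 1.02. The proximal peak of 165.5 tags (chr18:80715407-80715555) lay 2336 bp upstream of the outermost TSS in intergenic sequence, with a GC content of 72.5% and 16 CpG dinucleotides. It was at percentile 20.3 among peaks within 3 kb of a TSS, the lowest of the 6 proximal peaks. The distal peak of 162.5 tags (chr18:80655727-80655875) lay in intron 6 of 7 of the main transcript, 46752 bp from a noncoding TSS and 52298 bp from the nearest TSS of a protein-coding transcript. That intronic peak was at percentile 82.5 among peaks beyond 10 kb of any TSS, so scores of similar size ranked low within 3 kb of a TSS and high beyond 10 kb.

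**Figure D3:**
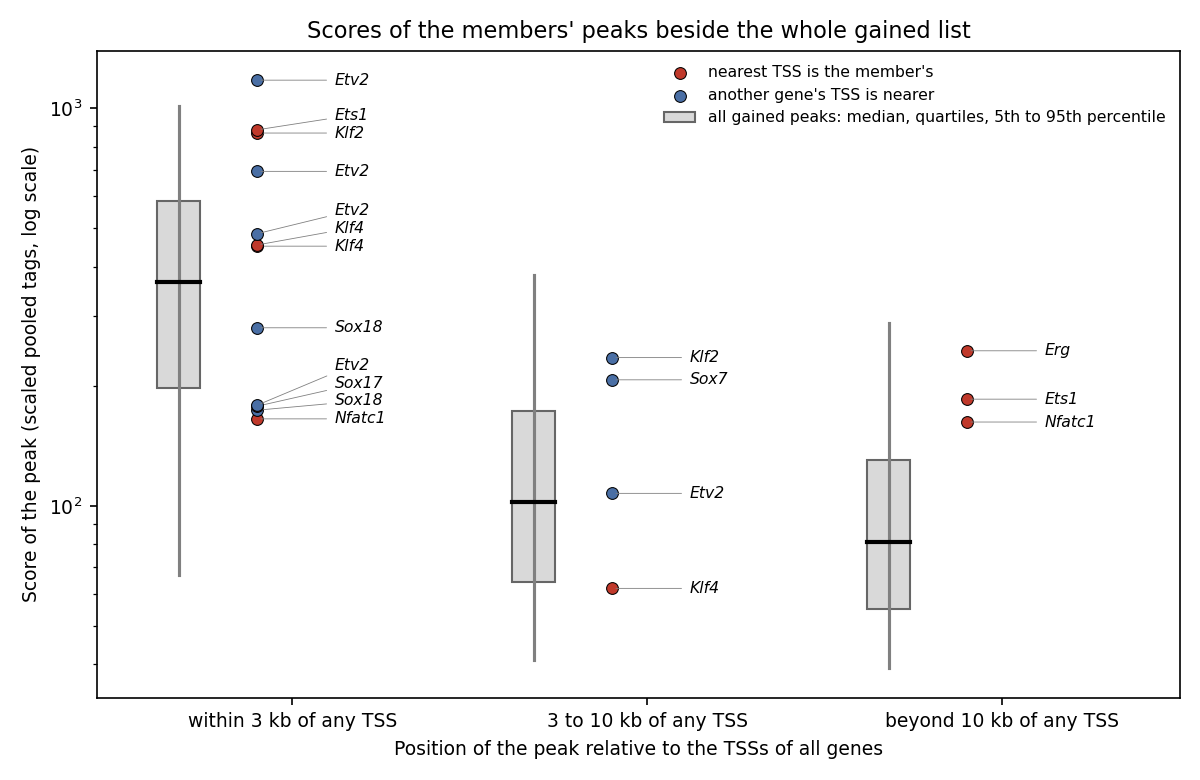
Scores of the 19 member peaks (points, scaled pooled tags, log scale) by the distance of the peak to the nearest TSS of any gene, beside all gained peaks of that class (box, quartiles with the median; line, 5th to 95th percentile). The peaks of *Ets1* and *Klf2* at their TSSs lie above the upper quartile of peaks within 3 kb, the promoter peaks of *Sox17* and *Nfatc1* lie below its lower quartile, and the intragenic peaks of *Erg*, *Ets1* and *Nfatc1* lie above the upper quartile of peaks beyond 10 kb.

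Across the members, the 19 scores had a median of 236 tags (range 62 to 1177), beside a median of 180.5 tags (quartiles 81 and 410) for the whole gained list, and 12 of the 19 were at or above that list median. The 8 promoter peaks had a median of 365.25 tags (range 62 to 882.5), and the 6 proximal peaks had a median of 451.5 tags (range 165.5 to 882.5). The 11 distal peaks had a median of 207.5 tags (range 107.5 to 1177). The scores of promoter and distal peaks overlapped over most of their range, since the highest score of all belonged to a peak that is distal to *Etv2* but at the start of *Kmt2b*.

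The distal peaks split by position. The 3 that lay inside the body of a member, in *Erg*, *Ets1* and *Nfatc1*, were all nearest to that member and scored 162.5 to 245.5 tags, with a median of 185.5. The 8 outside the gene bodies were all nearer to another gene and had a median of 221.75 tags (range 107.5 to 1177). Of the 8 promoter peaks, 7 were nearest to the member, the exception being the *Sox18* peak near *Tcea2*. Of the 9 members with a gained peak, 6 had one that was nearest to them, namely *Sox17*, *Erg*, *Ets1*, *Nfatc1*, *Klf2* and *Klf4*.

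The CpG content of the promoters was set beside the proximal peaks. The ratio of observed to expected CpG was computed over the 300 bases from 250 before to 50 after the outermost protein-coding TSS. It was 0.6 or more in 7 members, of which 5 had a proximal gained peak, and 77.4% of all genes with such promoters had one. Those 5 were *Ets1* (0.818), *Sox17* (0.854), *Nfatc1* (0.891), *Klf2* (0.899) and *Klf4* (0.97), and the 2 without were *Sox7* (0.785) and *Erg* (0.941). The ratio was below 0.6 in *Etv2* (0.266), *Sox18* (0.496) and *Fli1* (0.518), none of which had a proximal gained peak, and 29.5% of all genes with such promoters had one. A ratio of 0.6 or more with a proximal gained peak, or a lower ratio without one, was thus found in 8 of 10 members and in 73.6% of all genes, a share near that of the members. At *Erg* and *Sox17* the ratio depends on the TSS used, since their main transcripts start in sequence with ratios of 0.191 and 0.422.

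**Figure D4:**
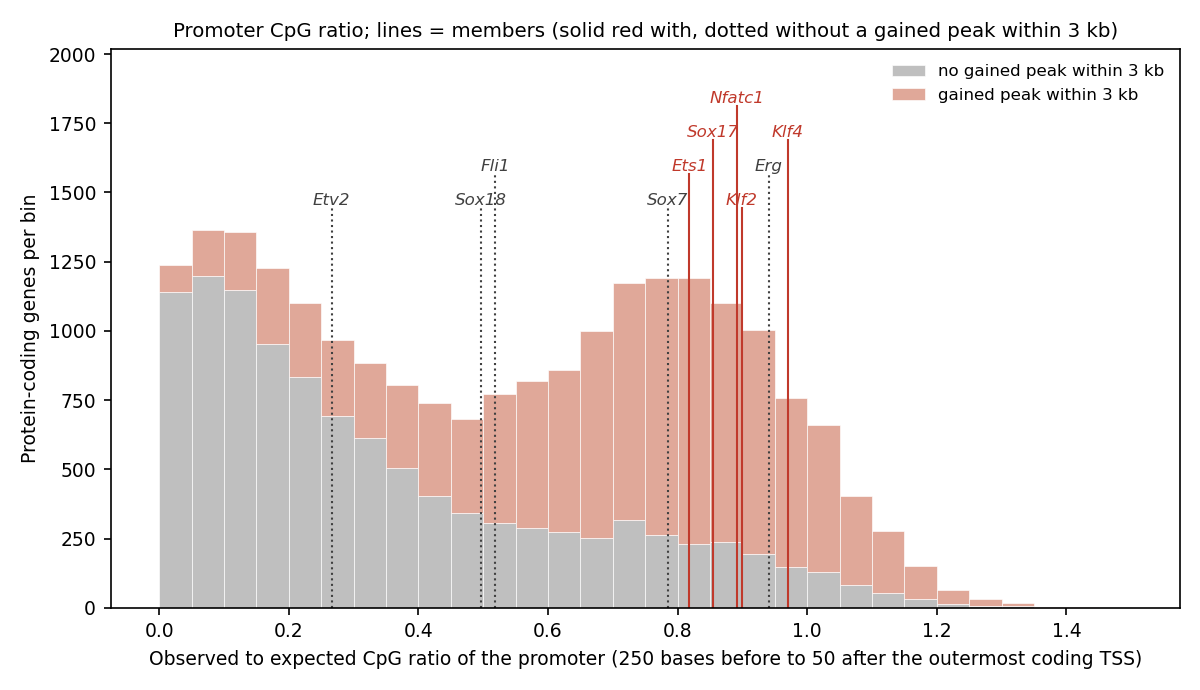
Observed to expected CpG ratio of the promoters of protein-coding genes (bars, genes per bin of 0.05, split by whether a gained peak lies within 3 kb of a TSS), with vertical lines for the 10 members. Solid red lines (5 members with a proximal gained peak) all lie at ratios of 0.818 or more, and dotted lines (5 without) lie at 0.266 to 0.941.

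The sequences of the 19 peaks were compared with those of the whole gained list. The median GC content was 60.4% in the members' peaks and 57.7% in all gained peaks, and the median CpG ratio was 0.529 and 0.416. The 8 promoter peaks had medians of 70.4% and 0.79, beside 65.1% and 0.739 for the class of all gained peaks within 3 kb of any TSS. These sets are not alike, since 1 of the 8, the *Klf4* peak 9844 bp upstream, lies beyond 3 kb of any TSS, in a class with medians of 53% and 0.219. The 11 distal peaks had medians of 59.1% and 0.473, beside 51.7% and 0.2 for all gained peaks beyond 10 kb of any TSS. Of those 11, 8 lie within 10 kb of a TSS of another gene. No repeat-masked base was present in 15 of the 19 peaks (78.9%), against 64.2% of all gained peaks.

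Binding motifs were searched as fixed strings on both strands, 1 string per factor, and a match describes the sequence and not a bound site. CACCC, the core recognised by KLF proteins, was in 9 of the 19 peaks and in 37% of all gained peaks. The GC box GGGCGG was in 5 of the 19 peaks, in *Sox17*, *Ets1*, *Klf2*, *Klf4* and the *Nfatc1* intron, and in 29.1% of all gained peaks, with 46.9% among those within 3 kb of a TSS and 6.74% beyond 10 kb. The GATA string AGATAA was in 3 of the 19 peaks (8.87% of all), the MEF2 string CTANNNNTA in 3 (9.15%), the ETS string CCGGAAG in 2 (4.98%) and the CTCF core AGGGGGC in 1 (9.09%). Both ETS matches were in peaks assigned to *Etv2* that lie at other genes. These shares also depend on position. Within 3 kb of a TSS and beyond 10 kb they were 3.68% and 16.5% for GATA and 5.98% and 13.4% for MEF2. They were 8.28% and 0.917% for ETS and 11% and 6.24% for CTCF. The SOX string AACAAT (2.85% of all) and the FOX string GTAAACA (1.44%) were in none of the 19, which says only that these letters are not in these windows. The strings are not exclusive of each other, since a match of the MEF2 string can contain the SOX string, and GGGCGG and AGGGGGC can overlap at their ends. In 2 of the 19 peaks none of the 8 strings was found. With 19 peaks, counts of this size describe these peaks and no difference from the list was tested.

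The relatives of the members in the same families were counted in the same way. For these and the lists below, a promoter peak can be nearer to another gene, which was not checked for the scores given. Of 16 other SOX genes, 12 had a gained promoter peak (75%). The highest scores were at *Sox12* (1275.5 tags), *Sox8* (729) and *Sox15* (589.5, beyond 3 kb of its TSSs). *Sox1*, *Sox3*, *Sox10* and *Sox14* had no gained peak assigned. Of 15 other KLF genes, 13 had a gained promoter peak (86.7%), led by *Klf13* (1432.5 tags) and *Klf3* (1373), the exceptions being *Klf14* and *Klf17*. All 4 other NFAT genes had one, with *Nfatc3* (746.5 tags) highest and *Nfatc2* (130) lowest. Of 22 other ETS genes, 16 had one (72.7%), led by *Etv5* (1236.5 tags) and *Elf2* (827.5), and 6 had none, among them *Ehf*, *Etv3*, *Fev*, *Spdef* and *Spib*. The members, with 6 of 10, were at the level of all genes (59.6%). Each family without its members stood at a higher share than the 10 members counted as a single list. By family the members differed. The KLF and NFAT members *Klf2*, *Klf4* and *Nfatc1* all had a gained promoter peak. Of the SOXF members, *Sox17* and *Sox18* had one and *Sox7* had none. Of the ETS members, *Ets1* had one, and *Erg*, *Fli1* and *Etv2* had none. None of these genes had a lost peak assigned. The lists were set side by side and the difference was not tested.

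Genes that act with, upstream of or downstream of the members were also counted. Among 18 partner regulators of endothelium and endocardium, 12 had a gained promoter peak (66.7%), beside 59.6% of all genes. The highest scores were at the Notch effectors *Hey2* (924.5 tags) and *Hey1* (876.5) and at *Gata5* (886.5), a GATA factor of endocardium. The 6 without were *Gata2*, *Hhex*, *Lmo2*, *Lyl1*, *Tal1* and *Tbx20*. Of these 6, *Gata2* and *Hhex* had no gained peak assigned in the gene body or within 50 kb of a TSS. The TSS peaks of *Ets1* and *Klf2* had 882.5 and 866.5 tags.

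Among 14 upstream inputs, 12 had a gained promoter peak (85.7%), beside 59.6% of all genes, and the difference was not tested. The genes described next were chosen after their values were seen. In the kinase cascade that induces *Klf2* and *Klf4*, the highest promoter peaks had 1755 tags at *Map3k3* (MEKK3), 339.5 at *Map2k5* (MEK5) and 762.5 at *Mapk7* (ERK5). In the calcineurin genes that act on NFATC1 they had 985.5 tags at *Ppp3ca*, 634 at *Ppp3cb* and 560 at *Ppp3r1*. The 2 inputs without a promoter peak were the VEGF receptor genes *Flt1* and *Kdr*, which had distal gained peaks only, 5 and 2 in number. *Flt4*, also a VEGF receptor gene, had a proximal peak of 149 tags. The receptor gene *Notch1* had a promoter peak of 561.5 tags.

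Among 18 targets and effectors, 11 had a gained promoter peak (61.1%, background 59.6%) and 8 a proximal one (44.4%, background 51.2%). The highest were at *Rcan1* (980 tags), the calcineurin-NFAT feedback regulator, and at *S1pr1* (870), a sphingosine-1-phosphate receptor induced by KLF2. The 7 without included *Cdh5*, *Emcn*, *Eng*, *Plvap* and *Robo4*, all of which had distal gained peaks only. Other endothelial surface genes of the list had a promoter peak, among them *Esam* (191.5 tags), *Cldn5* (153.5), *Thbd* (126), *Pecam1* (88) and *Tek* (79.5). *Cdh5*, which encodes VE-cadherin, and *Emcn*, which encodes endomucin, had 1 distal peak each, whereas *Eng* had 11, *Plvap* 7 and *Robo4* 3. Each of the 18 had at least 1 gained peak assigned (100%, background 79.2%).

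**Figure D5:**
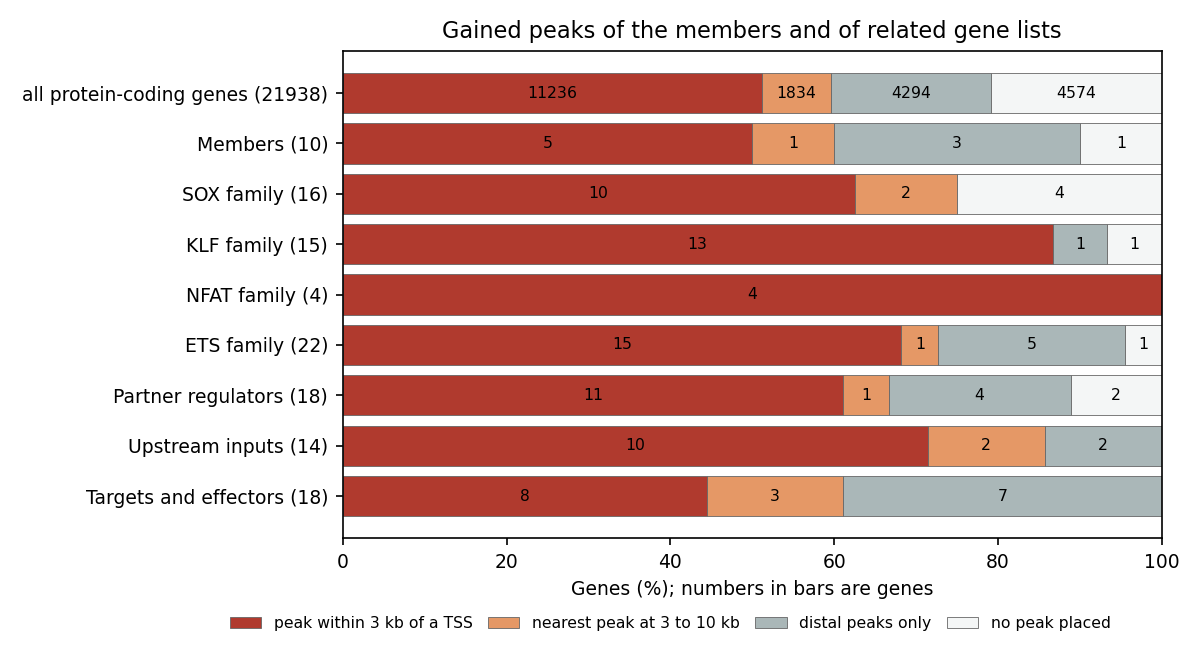
Share of genes (%) in each list by the closest class of gained peak assigned to them, with the number of genes written in the bars and all 21938 protein-coding genes at the top. The members have a proximal peak in 5, a nearest peak at 3 to 10 kb in 1, distal peaks only in 3 and no peak in 1, close to the bar of all genes. Below them are the 4 families without the members, the partner regulators, the upstream inputs and the targets, among which the proximal share runs from 44.4% of targets and effectors to all 4 NFAT genes.

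*Smyd1*, the mutated gene, had 3 gained peaks assigned, none within 3 kb of its TSSs, and no lost peak, so these lists hold no value that checks the genotype labels. Levels of tissue marker genes could not be checked either, since peaks alike in both genotypes were not used here.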

How the data were processed

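ATAC-seq was performed by the study on 4 libraries of E9.5 hearts, 2 per genotype. The authors aligned reads to mm10 with BWA-MEM, called peaks with HOMER 4.10.3 and annotated them with ChIPseeker 1.20.0. The deposited score is a signal, a scaled tag value that the authors pooled over the libraries of a genotype. Its steps of 0.5 (gained) and 0.1 (lost) show that it is not a raw count, and the scaling is not given in the sources used here. It has no replicate error and no interval. The treatment of duplicates, of multiply mapped reads and of the Tn5 offset is not given in the sources used here, and each could change which peaks were listed. Every peak is 149 bp wide. Starts were raised by 1 to count from 1, as the BED format requires. If the peak caller's starts, which already count from 1, had been copied unchanged, the printed starts would lie 1 base too far right, and the widths, distances and sequences would change by at most 1 base.

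Peaks were placed with Python 3.11.15, pandas 2.3.3, numpy 2.4.6 and pysam 0.24.0 against all transcripts of GENCODE M21, and drawn with matplotlib 3.10.9. Placing was tested on simulated peaks. The main transcript is the APPRIS principal transcript, the longest where several exist. Percentiles give the share of listed peaks with a lower score, ties counted at 0.5. Counts were set beside the same counts over all protein-coding genes, and no test was run. All members were named with all their peaks. In other lists at most 5 genes with the highest promoter score were named. At most 5 with none were named, in alphabetical order, or all of them for the partner regulators. The kinase cascade, the calcineurin genes and the notes on single genes of those lists were chosen after their values were seen. Genes nearer to a peak than the member were named for the 5 highest such peaks, and *Pinx1* and *Oprl1* beside them. The members and lists were chosen with earlier results of these data known. The promoter distance, window, TSS set, score minimum, distance point and nearest gene were varied. Of 23 listed ETS relatives, *Etv3l* was not matched by name.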

Additional observations from a re-analysis of the deposited data

How the results depend on the processing

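No paired analysis was possible because the deposited lists pool the libraries of each genotype and hold no value per library. For the same reason no replicate could be left out, and the spread between pools limits every statement. Under 8 alternative settings the count of lost peaks at the members stayed at 0, *Fli1* stayed without a gained peak, and 4 to 6 members had a gained promoter peak. The 19 assigned peaks became 12 with a window of 20 kb, 35 with 100 kb, 12 when only scores at or above the list median of 180.5 tags were kept, 10 when the nearest TSS of any gene had to be the member's, and 11 when the nearest TSS of a protein-coding transcript had to be. The 11 distal peaks became 4, 27, 7, 3 and 4 under these settings in turn. The 8 promoter peaks became 5 with the score minimum. At that minimum *Sox17* and *Nfatc1* lost all their peaks, and with the nearest TSS of any gene *Sox7*, *Sox18* and *Etv2* lost theirs. *Sox7* also lost its only peak with the 20 kb window, and kept it when protein-coding transcripts alone were used. The changes follow from the wider or narrower choice of peaks. Of the counts for single members, 135 were within 1.5 times the main count and 25 were not.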

Other observations

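Markers of the other cell types of the heart were counted in the same lists, since the hearts were not sorted, and 59.6% of all protein-coding genes had a gained promoter peak. All 11 cardiomyocyte genes had a gained promoter peak, among them *Actc1* (619.5 tags), *Ryr2* (601) and *Tnnt2* (599.5), and none had a lost peak. Of 5 epicardial genes 3 had a gained promoter peak, and *Tcf21* had no gained peak assigned. Of 5 mesenchymal genes 4 had one, with *Pdgfra* (593 tags) highest. Of 7 blood genes 2 had one, *Epor* (799.5 tags, beyond 3 kb of its TSSs) and *Klf1* (677.5). The embryonic globin genes *Hbb-y* and *Hbb-bh1* had no gained peak assigned. The share was above that of all genes in the cardiomyocyte (100%) and mesenchymal (80%) lists, near it in the epicardial list (60%) and below it in the blood list (28.6%), with no test and few genes in each list. The part of cell composition in the peaks of the members was not tested.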
